A study of Mus musculus with 14 samples.

Results

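ATAC is a histone acetyltransferase complex that shares catalytic subunits with the related SAGA complex. The 9 genes described here code for subunits of ATAC that SAGA lacks and for small proteins with a histone fold. This is a helical fold that pairs like H2A with H2B. The 9 genes are Kat14, Yeats2, Zzz3, Mbip, Wdr5, Dr1, Pole3, Pole4 and Chrac1, without the adaptor Tada2a, which SAGA lacks as well. They were taken by symbol, with no threshold on a measured value, although the set was proposed with earlier results of these data known, from the 22155 genes of an RNA-seq count table, in which Kat14 stands under its older symbol Csrp2bp. All 9 were found, and all 9 passed the filter on low counts that 11169 genes passed.

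The table holds 6 RNA-seq libraries of mouse MLL-AF9-Cas9+ leukemia cells, 3 carrying sgCtrl, an sgRNA against nonessential sequence, and 3 carrying sgSgf29. The cells of both groups came from lineage-negative bone marrow cells transformed by retroviral MLL-AF9, were grown as blasts in recipient mice and then in culture with SCF, IL-3 and IL-6, and were given Cas9 by the blasticidin-selected lentiCas9-Blast vector. The sgRNAs were carried by the ipUSEPR lentivirus, and the transduced cells were selected with puromycin (2 μg/ml, 3 days). The 8 ChIP samples among the 14 of the series were not analysed here. The labels do not say whether the 3 libraries of a group are repeats or different sgRNAs, so p-values measure the spread between these libraries, which may be technical.

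In ATAC, KAT2A or KAT2B acetylates histone H3 together with TADA2A, TADA3 and SGF29, whose Tudor domains read H3K4me3. KAT14 is a further acetyltransferase-like subunit, YEATS2 reads acylated histone lysines and pairs with the histone-fold protein DR1, ZZZ3 reads the N-terminal tail of histone H3, MBIP links to stress kinases, and WDR5 is a beta-propeller scaffold. Several of these proteins also serve elsewhere. DR1 pairs with DRAP1 in the NC2 repressor of TBP, POLE3 pairs with POLE4 in DNA polymerase epsilon and with CHRAC1 in the CHRAC remodeling complex, and WDR5 sits in the H3K4 methyltransferases and the NSL complex.

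The reference promoters are shown for the member with the largest fall (Pole3) and the member with the largest rise (Dr1). Also shown is a pair of members that were each other's nearest in profile (Kat14 and Wdr5). Yeats2 with Mbip and Pole4 with Chrac1 were such pairs too and are not printed. Each stretch is RefSeq sequence of GRCm38.p6, 5′ to 3′ on the strand of its gene, and lies upstream of the annotated start. Capitals mark matches, on either strand, to CCAAT (the NF-Y box), to GGGCGG (the GC box), to CACGTG (the E box of MYC), to CCGGAAG (an ETS site) or to TGCGCA (the core of the NRF1 site). No searched motif is in the Kat14 stretch, which also lies upstream of Pet117, a gene that overlaps Kat14 on the same strand.
Pole3, chr4:62525069-62525264, minus strand: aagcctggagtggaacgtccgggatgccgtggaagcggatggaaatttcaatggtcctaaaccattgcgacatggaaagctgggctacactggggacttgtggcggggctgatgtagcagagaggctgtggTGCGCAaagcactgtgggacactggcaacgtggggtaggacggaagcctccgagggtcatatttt
Dr1, chr5:108268647-108268896, plus strand: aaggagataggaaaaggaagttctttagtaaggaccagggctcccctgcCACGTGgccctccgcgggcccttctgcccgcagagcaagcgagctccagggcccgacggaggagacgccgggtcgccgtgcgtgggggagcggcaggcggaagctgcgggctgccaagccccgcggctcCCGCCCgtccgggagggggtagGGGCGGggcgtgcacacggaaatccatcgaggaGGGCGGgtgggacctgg
Kat14, chr2:144368782-144368982, plus strand: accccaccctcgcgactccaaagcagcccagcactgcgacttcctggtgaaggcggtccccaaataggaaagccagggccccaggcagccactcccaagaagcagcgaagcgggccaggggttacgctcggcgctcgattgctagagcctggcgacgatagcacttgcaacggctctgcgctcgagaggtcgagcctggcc
Wdr5, chr2:27514897-27515146, plus strand: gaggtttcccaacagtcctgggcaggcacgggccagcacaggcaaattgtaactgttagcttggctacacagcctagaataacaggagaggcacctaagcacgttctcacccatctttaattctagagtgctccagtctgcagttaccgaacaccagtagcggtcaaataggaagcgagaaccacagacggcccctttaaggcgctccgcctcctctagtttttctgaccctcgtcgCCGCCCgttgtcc
The Dr1 stretch holds 3 GC boxes and 1 E box, the Wdr5 stretch 1 GC box on the opposite strand, and the Pole3 stretch 1 TGCGCA and no GC box. Over the full 250 bases before the start, 6 of the 8 members with a RefSeq promoter window had at least 1 GC box in their first listed window. Zzz3 has 3 windows and Pole4 has 2, and their other windows were not searched. For comparison, 32.7% of the 32851 single windows held a GC box. Of the 27025 genes with a window, 35.4% had 1 in any window. Both shares include genes that did not pass the filter on low counts, which all members passed, so they are not matched to the members. The 6 members were Kat14, Yeats2, Zzz3, Wdr5, Dr1 and Pole4. The GC box thus stood before members that fell, that rose and that did not pass the test alike. In the first windows of the members, CCAAT was found before Mbip only and CACGTG before Dr1 only. CCGGAAG was found before Pole4 only and TGCGCA before Pole3 only. Over any window of a gene, the shares of all genes were 37.5%, 6.86%, 7.83% and 7.36% in that order. No GC box overlaps another searched motif in the printed stretches. A match is a run of letters and not a measured binding site. Chrac1 is the member without a window.

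The libraries held 16003990 to 21786618 counts in genes, of which the 9 members took 0.0497% to 0.0517%. Levels are CPM, counts scaled to a common library total, after TMM scaling, and SDs are over n = 3 libraries. TMM scales libraries by the bulk of genes, and its factors were 0.917 to 0.934 in sgCtrl and 1.06 to 1.10 in sgSgf29. The share of gene counts in ribosomal protein genes was 18.4% to 19.0% in sgCtrl and 11.9% to 13.4% in sgSgf29. Sgf29 itself, the targeted gene, measured 36.2, 40.4 and 40.4 CPM in sgCtrl and 12.6, 13.4 and 17.4 CPM in sgSgf29. It fell in each sgSgf29 library below every sgCtrl library (log2 fold change -1.43, SE 0.11, edgeR quasi-likelihood adjusted p = 2.9e-10).

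With sgSgf29, 5 of the 9 members fell (Kat14, Yeats2, Mbip, Wdr5 and Pole3), 2 rose (Zzz3 and Dr1), and 2 did not pass the test (Pole4 and Chrac1). Among all tested genes 69.8% passed at an adjusted p under 0.05, 34.4% as lower and 35.4% as higher, so the 7 members called are near what all genes gave. The groups did not overlap for 7 members, 5 lying lower in sgSgf29 and 2 higher, against 72.1% of tested genes without overlap. The median log2 fold change of the members was -0.27, beside 0.01 over all tested genes. The median size of change was 0.37 on the log2 scale for the members and 0.42 for all genes, and 0 members changed by 1 or more on that scale, as 14.9% of all genes did. Summed over the 9 genes, the level was 542.7 to 557.2 CPM in sgCtrl and 467.7 to 471.8 CPM in sgSgf29. The sum over all genes fell on this scaling too, from 1071570 to 1091300 CPM in sgCtrl to 909832 to 942581 CPM in sgSgf29. As a share of gene counts the members overlapped between groups, at 0.0497% to 0.0517% in sgCtrl and 0.0498% to 0.0514% in sgSgf29.

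The direction count depended on the scaling. With libraries scaled by their size alone, 3 members fell (Kat14, Wdr5 and Pole3) and 4 rose (Zzz3, Dr1, Pole4 and Chrac1), and 30.0% of all calls were lower, against 49.3% after TMM. Under that scaling the midpoint of all tested genes lay at 0.24 on the log2 scale, and the order of the members did not change. Set against that midpoint, Mbip stood at -0.29 and Chrac1 at 0.01 under both scalings.

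**Figure D1:**
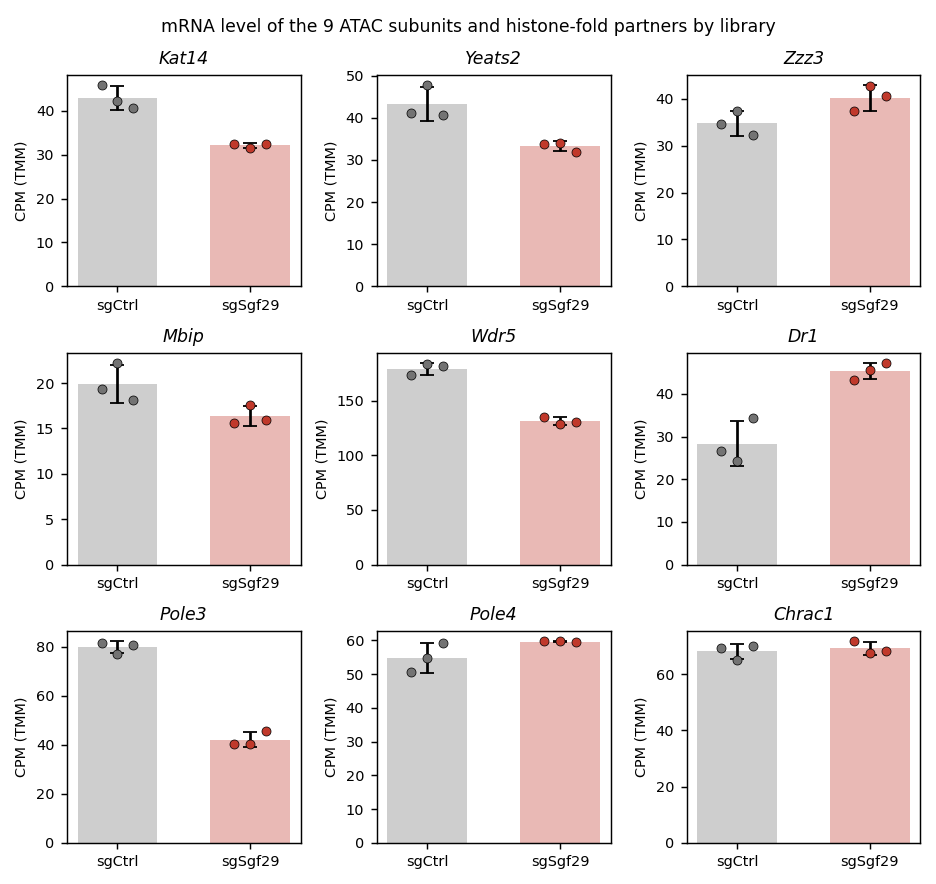
Level of each member in CPM after TMM scaling, with a dot for each library, bars at the mean and error bars of 1 SD (n = 3 libraries). The sgSgf29 dots lie below the sgCtrl dots for Kat14, Yeats2, Mbip, Wdr5 and Pole3, above them for Dr1 and Pole4, and among them for Zzz3 and Chrac1.

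**Figure D2:**
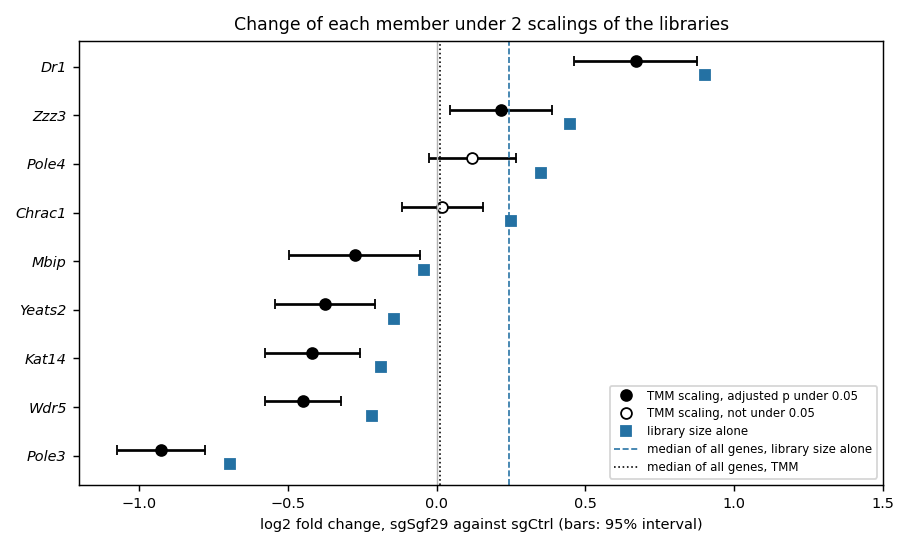
Log2 fold change of each member, sgSgf29 against sgCtrl, with its 95% interval after TMM scaling (circles, filled where the adjusted p is under 0.05) and its value with library size alone (squares). The squares lie to the right of the circles for all 9 members, by about as much as the median of all genes moves between the vertical lines, at 0.01 and 0.24.

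Kat14 (chr2:144369032-144407675, plus strand, GRCm38.p6) is the acetyltransferase-like subunit particular to ATAC. It measured 45.9, 42.1 and 40.6 CPM in sgCtrl and 32.5, 31.4 and 32.4 CPM in sgSgf29. All sgSgf29 libraries lay below all sgCtrl libraries. The level fell to 0.749 of the sgCtrl mean (log2 fold change -0.42, SE 0.08, 95% interval -0.58 to -0.26, edgeR adjusted p = 6.5e-05). Its annotated span shares 4726 bases with Pet117 on the same strand, and Pet117 was listed at 0 counts in all 6 libraries. Whether exons are shared was not measured, and reads of any shared exon cannot be assigned to either gene with certainty.

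The other 5 ATAC subunits moved in both directions, with 3 lower and 2 higher under TMM and under library size alone. Tada2a, the adaptor found in ATAC and not in SAGA, fell from 34.7 ± 2.25 to 20.2 ± 0.316 CPM (log2 fold change -0.78, adjusted p = 7.8e-08), and Kat2a fell from 99.4 ± 3.58 to 67.0 ± 1.90 CPM (-0.57, adjusted p = 1.1e-07). Sgf29 is the other that fell. Kat2b, the alternative acetyltransferase, rose from 18.6 ± 1.39 to 34.8 ± 0.911 CPM (0.90, adjusted p = 1.3e-08), and the adaptor Tada3 rose from 23.3 ± 0.762 to 32.3 ± 0.580 CPM (0.47, adjusted p = 3.3e-05). The log2 ratio of Kat14 to Tada2a counts within a library was 0.46, 0.18 and 0.28 in sgCtrl and 0.70, 0.61 and 0.69 in sgSgf29, a difference of 0.36. That of Kat14 to Kat2a was -1.14, -1.27 and -1.23 in sgCtrl and -0.998, -1.11 and -1.08 in sgSgf29, a difference of 0.15. The groups did not overlap for either ratio.

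SAGA-only subunits here are those in SAGA and not in ATAC, whether or not they also serve in other complexes. For comparison, they split evenly, with 7 lower, 7 higher and 2 not called among 16 tested of 18 (median log2 fold change 0.03). With library size alone 3 were lower and 9 higher. The 3 with the smallest adjusted p were Atxn7, a deubiquitinase-module subunit (1.08, adjusted p = 8.1e-09), Atxn7l3 of the same module (0.56, adjusted p = 2.3e-07) and Sf3b3, which is also a splicing factor (-0.49, adjusted p = 7e-07). Those not called were Taf5l (0.05, adjusted p = 0.57) and Taf6l (0.01, adjusted p = 0.91).

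Yeats2 (chr16:20141053-20232573, plus strand) codes for the acyl-lysine reader of ATAC. It measured 41.2, 47.9 and 40.6 CPM in sgCtrl and 33.8, 34.1 and 32.0 CPM in sgSgf29, so the groups did not overlap although sgCtrl 2 stood above the others. It fell to 0.771 of the sgCtrl level (log2 fold change -0.37, SE 0.08, 95% interval -0.54 to -0.21, adjusted p = 0.00035). Scaled by library size alone, the value was -0.14 (adjusted p = 0.13) and the call was lost. None of the other YEATS-domain genes tested fell. Yeats4, shared by other acetyltransferase and remodeling complexes, rose from 56.0 ± 4.43 to 70.8 ± 2.14 CPM (adjusted p = 0.00027), while Mllt1 (0.00, adjusted p = 0.97) and Mllt3, the AF9 partner of the fusion (0.21, adjusted p = 0.26), did not pass. Under library size alone all 3 were higher, Mllt1 at 0.24 (adjusted p = 0.0092) and Mllt3 at 0.44 (adjusted p = 0.021).

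Zzz3 (chr3:152395473-152462826, plus strand) codes for the H3-tail reader. It measured 34.6, 37.4 and 32.2 CPM in sgCtrl and 37.3, 42.8 and 40.6 CPM in sgSgf29, and sgCtrl 2 lay within the sgSgf29 range. It rose by 0.22 on the log2 scale (SE 0.08, 95% interval 0.05 to 0.39, adjusted p = 0.023), the smallest change called among the members. The call did not hold without sgCtrl 1 (adjusted p = 0.054), sgCtrl 3 (0.085), sgSgf29 2 (0.11) or sgSgf29 3 (0.051), nor in DESeq2 (adjusted p = 0.051).

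Mbip (chr12:56328306-56345933, minus strand) codes for the subunit that binds MAP kinase kinase kinases, and had the fewest counts of the 9, at 267 to 391 per library. It measured 19.4, 22.2 and 18.1 CPM in sgCtrl and 15.6, 17.6 and 15.9 CPM in sgSgf29. The groups did not overlap, although the lowest sgCtrl and the highest sgSgf29 library were close. It fell by 0.27 on the log2 scale (SE 0.11, 95% interval -0.49 to -0.06, adjusted p = 0.025). The call did not hold without sgCtrl 2 (adjusted p = 0.14), sgSgf29 1 (0.093) or sgSgf29 3 (0.091), nor with library size alone (log2 fold change -0.04, adjusted p = 0.74). Of its kinase partners, Map3k12 fell from 37.5 ± 4.42 to 27.0 ± 4.96 CPM (-0.47, adjusted p = 0.00073), a call lost with library size alone (-0.25, adjusted p = 0.055), and Map3k13 was near 0 counts and was not tested.

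Wdr5 (chr2:27515147-27536535, plus strand) codes for the scaffold and was the member with the most counts. It measured 173.4, 183.5 and 181.5 CPM in sgCtrl and 135.4, 128.8 and 130.6 CPM in sgSgf29, with every sgSgf29 library below every sgCtrl library. It fell to 0.733 of the sgCtrl level (log2 fold change -0.45, SE 0.06, 95% interval -0.58 to -0.32, adjusted p = 1.7e-06). Its paralogue Wdr5b, at a lower range of 8.04 to 13.2 CPM, had overlapping groups and rose from 9.31 ± 1.70 to 12.3 ± 1.38 CPM (0.40, adjusted p = 0.016). That call did not hold without sgCtrl 1 (log2 fold change 0.36), sgCtrl 3 (0.30), sgSgf29 1 (0.35) or sgSgf29 3 (0.37).

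After TMM, Wdr5 fell, and of its 9 H3K4 methyltransferase partners 6 fell, 0 rose and 3 were not called (median log2 fold change -0.26). Among all tested genes 34.4% were lower and 35.4% higher. Dpy30, which forms the core module with Wdr5, Rbbp5 and Ash2l, fell from 102.7 ± 4.06 to 60.1 ± 1.31 CPM (-0.77, adjusted p = 1.2e-09). The catalytic subunits Setd1a (-0.61, adjusted p = 1.2e-05) and Kmt2d (-0.34, adjusted p = 7.8e-05) fell too. Those not called were Kmt2a, the gene whose product is part of the fusion (-0.07, adjusted p = 0.46), Kmt2c (0.04, adjusted p = 0.74) and Setd1b (0.18, adjusted p = 0.066). Scaled by library size alone, 2 of the 9 fell and 2 rose. The log2 ratio of Wdr5 to Rbbp5 was 2.03, 2.13 and 2.15 in sgCtrl and 2.21, 1.84 and 1.79 in sgSgf29, with overlapping groups (difference -0.16, exact permutation p = 0.4, two-sided, adjusted 0.45).

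The NSL complex, the other main home of Wdr5, did not move one way, with 2 lower, 2 higher and 4 not called of 8 (median log2 fold change -0.04), and with library size alone 1 lower and 4 higher. Kansl2 (-0.54, adjusted p = 3.1e-07) and Kansl3 (-0.26, adjusted p = 0.0049) fell, and Kansl1 rose (0.27, adjusted p = 0.0064), all being structural subunits. Hcfc1, a cofactor shared with the methyltransferases, rose by 0.17 (adjusted p = 0.033), had overlapping groups, and is named here after its values were seen. Without sgSgf29 2 the list had 3 lower and 0 higher, and without sgCtrl 1, sgCtrl 2 or sgSgf29 3 it had 1 higher. Its acetyltransferase Kat8 (-0.14, adjusted p = 0.22), Mcrs1 (0.09, adjusted p = 0.28), Phf20 (0.07, adjusted p = 0.46) and Ogt (-0.18, adjusted p = 0.072) did not pass.

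Among the 4 histone-fold members, 1 fell, 1 rose and 2 did not pass. Dr1 (chr5:108268897-108280521, plus strand) had the largest rise of the 9. It measured 26.6, 24.2 and 34.3 CPM in sgCtrl and 43.4, 45.7 and 47.1 CPM in sgSgf29. The groups did not overlap, and sgCtrl 3 stood above the other controls. Dr1 rose 1.59-fold (log2 fold change 0.67, SE 0.10, 95% interval 0.46 to 0.88, adjusted p = 4.7e-06), and 83.2% of tested genes had a lower log2 fold change. Leaving out each library in turn gave 0.57 to 0.84.

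The partners of Dr1 did not rise with it. Drap1, the other subunit of NC2, fell from 337.9 ± 12.9 to 256.6 ± 16.8 CPM (log2 fold change -0.40, adjusted p = 2e-05), while Tbp, whose product NC2 binds (-0.14, adjusted p = 0.16), and Btaf1, a TBP-removing ATPase (0.01, adjusted p = 0.91), did not pass. Drap1 still fell and Btaf1 rose under library size alone. The log2 ratio of Dr1 to Drap1 counts was -3.73, -3.79 and -3.25 in sgCtrl and -2.67, -2.44 and -2.38 in sgSgf29, a 2.13-fold higher ratio. The log2 ratio of Dr1 to Yeats2, its partner within ATAC, was -0.63, -0.98 and -0.24 in sgCtrl and 0.36, 0.42 and 0.56 in sgSgf29, so Yeats2 had the more counts in every sgCtrl library and Dr1 in every sgSgf29 library. Counts are not scaled to gene length. In CPM per kb of RefSeq exon Dr1 stood above Yeats2 in both groups (9.21 and 5.89 in sgCtrl, 14.7 and 4.53 in sgSgf29). Ratios within a library do not depend on the scaling, but they do not say which of the pair moved.

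Pole3 (chr4:62523798-62525014, minus strand) had the largest fall of the 9. It measured 81.7, 76.9 and 80.9 CPM in sgCtrl and 40.3, 40.2 and 45.5 CPM in sgSgf29, far apart with no overlap. It fell to 0.527 of the sgCtrl level (log2 fold change -0.93, SE 0.07, 95% interval -1.07 to -0.78, adjusted p = 3.5e-10), and 5.91% of tested genes had a lower value. Its fall stayed called with library size alone (-0.69).

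Pole4 (chr6:82616532-82653043, minus strand), the dimer partner of Pole3 in polymerase epsilon, measured 50.5, 54.6 and 59.2 CPM in sgCtrl and 59.8, 59.7 and 59.4 CPM in sgSgf29. The sgSgf29 libraries lay just above all controls, yet the difference did not pass (log2 fold change 0.12, SE 0.07, 95% interval -0.03 to 0.27, adjusted p = 0.14). It did pass without sgCtrl 3 (0.18, adjusted p = 0.021) and with library size alone (0.35, adjusted p = 0.00024). The annotated antisense gene Gm44145 overlaps the span of Pole4 by 14691 bases, and the strand setting of the counting is not given in the sources used here.

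Chrac1 (chr15:73090412-73094075, plus strand), the partner of Pole3 in CHRAC, measured 69.4, 65.1 and 69.8 CPM in sgCtrl and 71.8, 67.4 and 68.2 CPM in sgSgf29. The groups overlapped and the difference did not pass (log2 fold change 0.02, 95% interval -0.12 to 0.16, adjusted p = 0.80). It was called as higher under library size alone (0.25, adjusted p = 0.0018), next to the midpoint of all genes under that scaling, 0.24. Its span overlaps Ago2 on the opposite strand by 1711 bases, and Ago2 did not pass either (61.8 ± 9.62 and 67.6 ± 4.90 CPM, adjusted p = 0.22).

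Pole3 therefore had different ratios to its dimer partners in the groups. The log2 ratio of Pole3 to Pole4 counts was 0.69, 0.49 and 0.45 in sgCtrl and -0.57, -0.57 and -0.38 in sgSgf29, a ratio 0.482 of that in sgCtrl. The log2 ratio of Pole3 to Chrac1 was 0.23, 0.24 and 0.21 in sgCtrl and -0.83, -0.74 and -0.58 in sgSgf29. Pole3 had the more counts in each sgCtrl library and the fewer in each sgSgf29 library for both pairs. Its ratio to Pole, the catalytic subunit of polymerase epsilon, overlapped between groups, at -0.32, -0.32 and 0.04 in sgCtrl and -0.33, -0.25 and -0.07 in sgSgf29 (difference -0.02, exact permutation p = 0.8). The ratio of Pole4 to Pole was 2.05-fold higher in sgSgf29.

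Pole fell from 92.1 ± 11.9 to 48.8 ± 1.56 CPM (log2 fold change -0.92, adjusted p = 3.8e-09), and the accessory subunit Pole2 fell from 27.5 ± 0.398 to 22.9 ± 1.33 CPM (-0.27, adjusted p = 0.0095). Of the CHRAC subunits, Baz1a, the large scaffold, fell from 112.6 ± 16.1 to 82.4 ± 2.72 CPM (-0.45, adjusted p = 6.5e-05), and Smarca5, the ATPase, from 145.9 ± 10.4 to 124.4 ± 5.91 CPM (-0.23, adjusted p = 0.0048). With library size alone Pole and Baz1a stayed lower, while Pole2 (-0.04, adjusted p = 0.72) and Smarca5 (0.00, adjusted p = 0.98) were not called. Without sgSgf29 2, Pole2 was not called. The NF-Y subunits, histone-fold proteins of another dimer, moved apart, Nfyc rising (0.51, adjusted p = 1.1e-05) and Nfyb falling (-0.26, adjusted p = 0.0036, not called with library size alone).

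Over the 9 pairs compared within libraries, 7 had groups that did not overlap. Among single tested genes 72.1% did not overlap, and the share among other pairs of genes was not computed. Each of the 7 pairs had an exact two-sided permutation p = 0.1, and 0.129 after Benjamini-Hochberg adjustment. That p is the smallest that 3 libraries against 3 allow, so no pair could reach the threshold in this design.

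**Figure D3:**
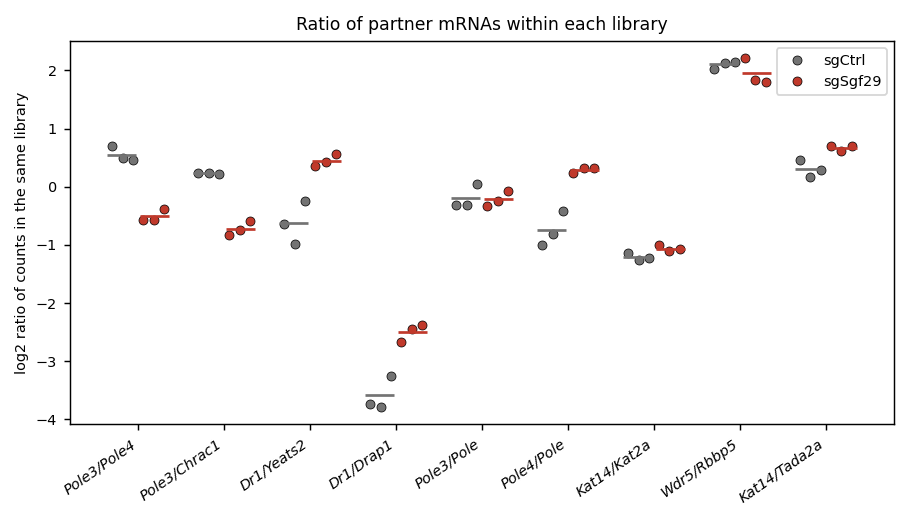
Log2 ratio of the counts of a pair of partner genes within each library (dots), with the mean of each group (lines, n = 3 libraries). The sgCtrl and sgSgf29 dots change sides of 0 for Pole3/Pole4, Pole3/Chrac1, Dr1/Yeats2 and Pole4/Pole and overlap for Pole3/Pole and Wdr5/Rbbp5. The counts are not scaled to gene length, so the side of 0 does not give the more abundant mRNA of a pair.

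**Figure D4:**
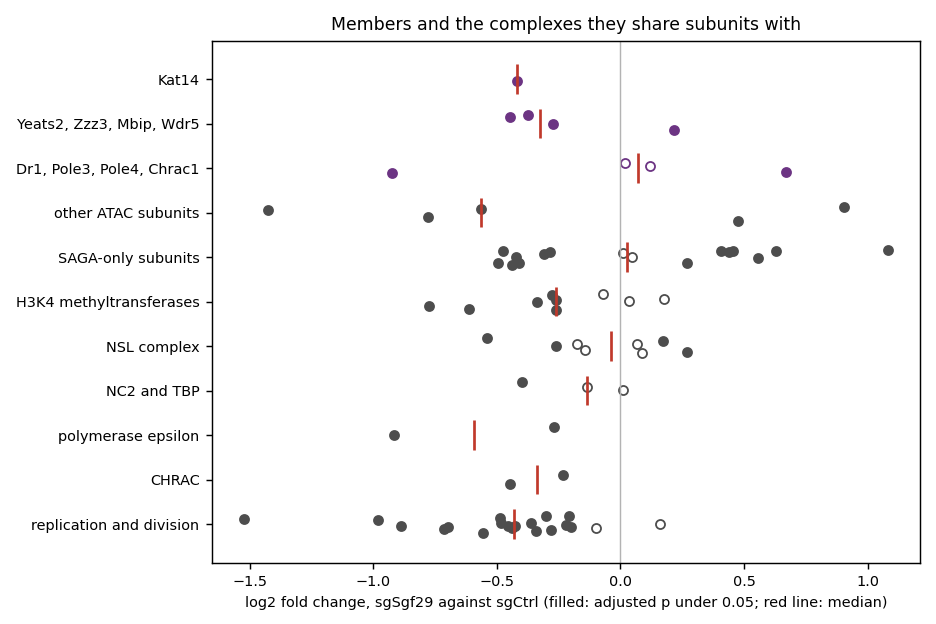
Log2 fold change of each tested gene, by complex or list, after TMM scaling (filled dots, adjusted p under 0.05), with red lines at list medians. The histone-fold members span -0.93 to 0.67, while 18 of the 20 replication genes lie below 0 with an adjusted p under 0.05.

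The replication and division genes were measured beside Pole3, since it codes for a replication protein as well. Of 20, 18 fell, 0 rose and 2 did not pass (median log2 fold change -0.43), where 34.4% of all tested genes were lower. The summed level of the list was 3462 to 3698 CPM in sgCtrl and 2402 to 2794 CPM in sgSgf29. The sum over all genes was lower as well, at 1071570 to 1091300 CPM in sgCtrl and 909832 to 942581 CPM in sgSgf29. The 3 with the smallest adjusted p were Rrm2, which makes deoxynucleotides (-1.52, adjusted p = 5.9e-13), Pold1 of polymerase delta (-0.98, adjusted p = 3.9e-11) and Gins1 of the replicative helicase (-0.89, adjusted p = 1.1e-08). The sliding clamp Pcna (0.16, adjusted p = 0.095) and the proliferation marker Mki67 (-0.10, adjusted p = 0.24) did not pass. With library size alone 11 fell and 1 rose. The part of this list in the fall of Pole3 was not tested.

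Markers of cell identity moved with the groups as well. The mature myeloid markers summed to 9018 to 9472 CPM in sgCtrl and 24100.5 to 25843 CPM in sgSgf29, and none was at 0 in all libraries. Of the 15, 11 were higher and 3 lower, beside 35.4% higher and 34.4% lower among all tested genes. Markers of the labelled leukemic blasts were present apart from Cd34, which was at 0 in all libraries. Of the 9 tested, 4 were lower and 5 higher, and they summed to 1722 to 1751 CPM in sgCtrl and 1998 to 2014 CPM in sgSgf29. The genes of this list, named after their values were seen, went apart. Kit (log2 fold change -0.74), Hoxa9 (-1.37), Myb (-0.69) and Mpo (-1.83) fell. Meis1 (0.46), Ptprc (0.65), Spi1 (0.32) and Fcgr3 (0.26) rose. The myeloid integrin Itgam rose from 136.5 ± 7.91 to 531.8 ± 34.5 CPM, more than the whole rise of the sum. Other lineages were low in both groups. Reads without a unique alignment (5.41% to 7.57% of all counts in a library) were not assigned to genes. A 0 for a gene with a near-identical copy elsewhere therefore does not show absence. Erythroid markers summed to at most 2.16 CPM (Hba-a1 and Hbb-bs among those at 0), B cell markers to at most 1.27 CPM (Ms4a1 at 0) and fibroblast markers to at most 0.541 CPM (Col3a1 and Dcn at 0). In sgCtrl and sgSgf29 respectively, megakaryocyte markers summed to 8.57 to 9.85 and 7.13 to 9.33 CPM (Pf4 and Gp1bb at 0, most of it Gp9). In the same order, mast cell and basophil markers summed to 9.44 to 10.1 and 2.79 to 3.91 CPM (Cpa3, Fcer1a and Tpsb2 at 0, most of it Mcpt8). T and NK cell markers summed to 7.70 to 8.99 and 3.27 to 4.69 CPM (Cd3e, Cd4 and Cd8a at 0, most of it Nkg7). The part of these markers in the changes of the members was not tested. In bulk RNA, fewer cells of a type and less RNA per cell cannot be told apart.

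Levels of different genes were compared per kb of annotated RefSeq exon. In sgCtrl the order was Pole3 (132.6 ± 4.23 CPM per kb), Chrac1 (80.0 ± 3.09), Wdr5 (61.9 ± 1.86), Pole4 (22.0 ± 1.74), Mbip (13.2 ± 1.39), Kat14 (11.4 ± 0.738), Dr1 (9.21 ± 1.71), Yeats2 (5.89 ± 0.550) and Zzz3 (4.46 ± 0.334). The neighbours Mbip and Kat14, and Kat14 and Dr1, overlapped in their libraries, and the other neighbours did not. In sgSgf29 Chrac1 (81.2 CPM per kb) stood above Pole3 (69.8), Dr1 (14.7) moved above Mbip (10.9) and Kat14 (8.56), Zzz3 (5.16) moved above Yeats2 (4.53), and no neighbours overlapped. The scale rests on gene length. With GENCODE exons, chosen as an alternative after seeing the data, Pole3 has 2040 bases of exon in place of 602, and Wdr5 (49.9 CPM per kb) stood above Pole3 (39.1) in sgCtrl.

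**Figure D5:**
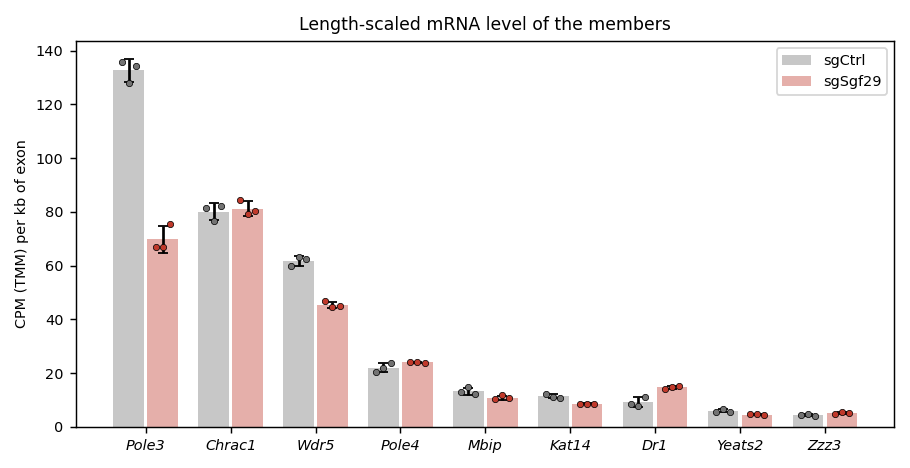
Length-scaled level of each member in CPM per kb of RefSeq exon, with dots for libraries, bars at the mean and error bars of 1 SD (n = 3 libraries). Pole3 is highest in sgCtrl at 132.6 and falls below Chrac1 in sgSgf29, while Dr1 rises past Mbip and Kat14.

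Profiles over the 6 libraries were compared by the root mean square distance of log2 CPM, each centred on its mean, as a description over 6 points. Kat14 and Wdr5 were nearest to each other among the members (0.079), as were Yeats2 and Mbip (0.070) and Pole4 and Chrac1 (0.092). Zzz3 (0.13) and Dr1 (0.31) were nearest to Pole4, and Pole3 (0.25) to Wdr5, so Dr1 and Pole3 stood farthest from the others. Among all tested genes, the nearest profiles given here were those of Ecd for Wdr5 (0.011), Cct3, a chaperonin subunit, for Pole3 (0.016), Actb, cytoplasmic beta-actin, for Chrac1 (0.016), Zbtb21 for Yeats2 (0.021), Pex6, a peroxisomal ATPase, for Kat14 (0.024), Cers4, a ceramide synthase, for Zzz3 (0.026), Lpin2, a phosphatidate phosphatase, for Mbip (0.028) and Agap1 for Dr1 (0.045). Cct3 shared the size of the fall of Pole3 (log2 fold change -0.93).

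Beside Pole3, the gene 4933430I17Rik starts on the opposite strand with a gap of 300 bases and shares the printed upstream stretch. It had 73 counts over all 6 libraries and fell from 1.18 ± 0.394 to 0.227 ± 0.112 CPM (log2 fold change -2.40, SE 0.48, adjusted p = 0.00017). Yeats2 overlaps the pseudogene Gm10241 by 286 bases on the opposite strand, and Zzz3 overlaps Ak5 by 12 bases, with 14 counts of Ak5 over all libraries.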

How the data were processed

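RNA of 6 cell libraries was sequenced. The authors deposited raw counts per gene in 1 table. Alignment to GRCm38 used STAR, given as 2.6.0a in the notes of the submitters and in another version in the paper, which gives featureCounts as the counter. The table holds 5 bookkeeping entries of the kind htseq-count writes, which held 25.8% to 31.4% of its counts and were left out. Neither the annotation nor the strand setting is given in these sources.

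Genes passed edgeR's filterByExpr (minimum 10 at the median library size, 15 summed). TMM factors scaled the counts, and edgeR 4.0.16 (R 4.3.3) gave quasi-likelihood tests over all 11169 tested genes, with Benjamini-Hochberg adjustment and calls at 0.05 (biological coefficient of variation 6.61%). Pair ratios used a pseudocount of 0.5 and exact two-sided permutation tests. Replicate libraries differed by more than sampling noise (reduced chi-square 4.60 to 16.0). Alternatives were other scalings, DESeq2 1.42.0, limma-voom (limma 3.58.1), filters, a threshold of 0.01, a replicate block and each library left out.

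Named genes were the members, Sgf29, all genes of the short partner lists, of 4 longer lists the 3 called genes with the smallest adjusted p and those not called, the nearest profile of each member, and neighbouring genes. The nearest profile of 1 member is not reported here. The members and lists were chosen with earlier results of these data known.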

Additional observations from a re-analysis of the deposited data

How the results depend on the processing

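Members called lower numbered 5 and members called higher 2 after TMM. With library size alone they numbered 3 and 4, and 2385 genes in all were called lower, against 3842. That scaling moved the median of all genes to 0.24, and each member shifted by about as much. Members called higher numbered 1 in DESeq2 and at an adjusted p under 0.01, where Zzz3 was not called. At that threshold Mbip was not called either, and members called lower numbered 4. Leaving out 1 library at a time gave 4 to 5 members lower, 1 to 2 higher, 3430 to 3833 genes lower and 3662 to 3943 higher, with Sgf29 at -1.57 to -1.33. The log2 fold change of Chrac1 turned to -0.013 (adjusted p = 0.88) without sgCtrl 2 and ranged from -0.013 to 0.050 over the libraries left out. The difference of the log2 ratio of Pole3 to Pole turned to 0.10 without sgCtrl 3 and to 0.037 without sgSgf29 1, with a range of -0.092 to 0.10. The cause was not tested. Of the log2 fold changes, 144 kept direction and call, 12 lost the call, 3 gained it and 1 turned. With the replicate number as a block, 5 members were lower and 2 higher, with 3937 genes lower and 4059 higher, and no member changed its call. Deviations of same-numbered libraries correlated at 0.03, 0.08 and 0.12, and those of unlike numbers at -0.12 to 0.04. The libraries sgSgf29 2 and sgSgf29 3 correlated best with the sgCtrl library of the same number, and sgSgf29 1 with sgCtrl 2 (0.04). These values do not settle whether the numbers mark a pairing, and the main fit used none. Depth limits Mbip most, at 267 to 391 counts.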
